A study of Schizosaccharomyces pombe with 8 samples.

Results

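The comparison described here set a disruptant of cgs1 in the fission yeast Schizosaccharomyces pombe (Δcgs1) against the wild type, across all 4940 genes measured, on 4 of the 8 arrays of the series. Wild type was strain PR110, mating type h+, with leu1-32 and ura4-D18, a mutant allele of leu1 and a deletion of ura4. Δcgs1 was strain YMP41, which has the same background and in addition cgs1::ura4, so ura4 was put back as the marker within cgs1. All strains therefore carried leu1-32 and the ura4 deletion at its own locus, and Δcgs1 differed from wild type by the presence of ura4 as well as by the loss of cgs1. The other arrays hold a strain labelled as the disruptant of pka1 (YMP37, pka1::ura4) and a disruptant of ppt1 (OG1, ppt1::kanMX6), which enter here for the estimate of the spread and for values set beside those of Δcgs1. Cells grew in 50 mL of YES, a rich medium, with rotation at 30 °C, and were harvested in logarithmic phase after 8 hours. Each strain had 2 arrays, 1 on each of 2 slides, from separate cultures of the same strain. The labels do not say how many independent isolates a disruptant stands for.

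In fission yeast, glucose is sensed at the cell surface by a receptor and a heterotrimeric G protein that activate adenylate cyclase. The cAMP made by the cyclase binds Cgs1, the regulatory subunit of protein kinase A (PKA), and releases the catalytic subunit Pka1. Active Pka1 is known to keep the genes of gluconeogenesis and of sexual development repressed while glucose is plentiful, and without Cgs1 it lacks its inhibitor. The comparison asks which transcripts differ in growing cells that lack this inhibitor.

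Signal for cgs1 (SPAC8C9.03) was 20232 on slide 1 and 28238 on slide 2 in wild type, and 1404 and 1360 in Δcgs1. All signals are intensities on a linear scale, 1 per gene and array. The Δcgs1 signals lay between the lowest and highest signals of the other deleted genes, 1000 (ura4 in Δppt1) and 2497 (ppt1 in Δppt1). The highest, 2497, is used here as a background limit, so the fall was at least 9.57-fold. The fitted log2 fold change was -4.11 (SE 0.13, adjusted p = 0.00128 by limma, 2 arrays per strain). The marker ura4 (SPCC330.05c), an enzyme gene of uracil synthesis, read 1362 and 1627 in wild type against 39913 and 44787 in Δcgs1. It was at least 16.9-fold higher (log2 fold change 4.83, SE 0.16, adjusted p = 0.00128), and both genes go with the labels. Signal for pka1 (SPBC106.10), the gene of the catalytic subunit, was 28743 and 34715 in wild type against 28563 and 34673 in Δcgs1, which overlap (log2 difference -0.01, SE 0.06, adjusted p = 0.989). The amino acid synthesis gene leu1, mutant in both strains, read 59218 and 61949 in wild type against 58436 and 62854 in Δcgs1 (adjusted p = 0.998). Signal for pka1 was not low in the arrays labelled Δpka1 (38387 and 46832), so they are named by that label throughout. The presence of ura4 and the loss of cgs1 cannot be told apart in this comparison.

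**Figure D1:**
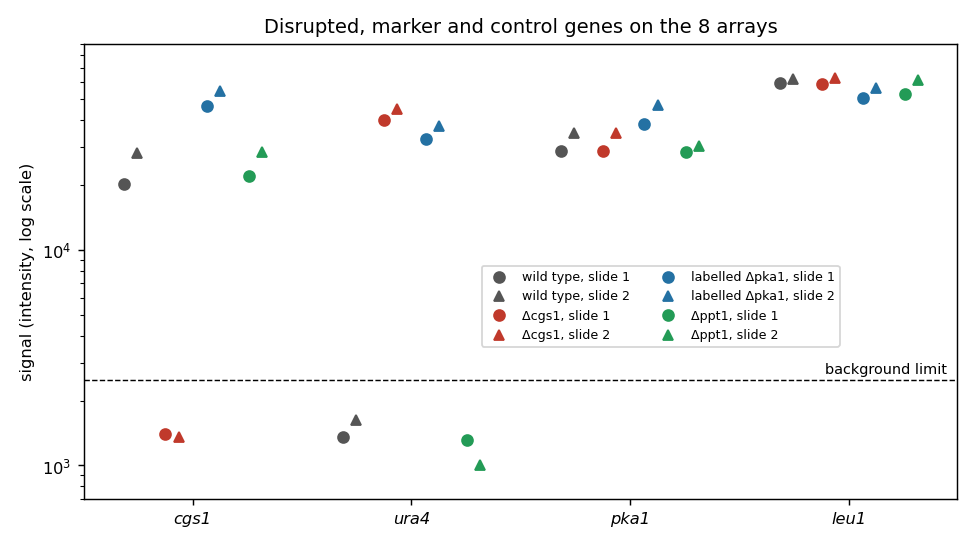
Signal of cgs1, ura4, pka1 and leu1 on each of the 8 arrays, on a log axis, with circles for slide 1, triangles for slide 2 and the background limit of 2497 as a dashed line. In Δcgs1 the cgs1 signals of 1404 and 1360 lie below the limit and the ura4 signals of 39913 and 44787 lie far above the 1362 and 1627 of wild type.

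Transcript levels in Δcgs1 stayed close to those of wild type. Across genes, which are not independent replicates, arrays of Δcgs1 and wild type correlated with Pearson's r = 0.991 on slide 1 and 0.990 on slide 2, against 0.994 between the 2 slides of either strain. The median log2 difference over all genes was 0.02, and 62.1% of genes lay above 0. Array medians were 21210 in wild type and 22148 in Δcgs1 on slide 1, and 25475 and 25548 on slide 2. A gene was called where the adjusted p of the limma fit with slide as a block lay below 0.05. At an unadjusted p below 0.05 there were 675 genes. The adjusted test called 41 genes (0.83% of 4940), of which 32 were higher in Δcgs1 (0.648%) and 9 lower (0.182%). Without cgs1 and ura4, 31 genes rose and 8 fell, the median size of their log2 differences was 0.65, 7 lay past 1 and 14 lay under 0.5. In 38 of the 41 genes the signals of the strains did not overlap, as in 12.6% of all genes, and all 41 had the same sign on both slides. Both traits favour a call, since the same arrays chose the genes.

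The number of calls depends strongly on the fit. Without slide as a block the same arrays gave 7 calls, cgs1, ura4, mug27, pfl8, pfl9, SPAC869.01 and SPBPB2B2.18, and the SE of a gene had a median of 0.143 in place of 0.0589. Leaving out 1 array of wild type left 6 calls (slide 1) or 2 (slide 2), and leaving out either array of Δcgs1 left 1, which was cgs1. Leaving out an array labelled Δpka1 left 15 calls, and an array of Δppt1 left 27. Of the 39 called genes other than cgs1 and ura4, 3 were still called without some array of wild type or Δcgs1 (pfl8, pfl9 and SPBC23G7.10c), and 36 were called only with all 4 in the fit. All 41 kept their sign in all 19 alternatives tried. These reuse the arrays that chose the genes, and several cannot change a log2 difference, so the kept signs are no separate support. Of the calls, 78.0% were higher as deposited, 64.2% with array medians matched (43 of 67 calls), 60.3% after quantile normalization (70 of 116) and 65.1% after cyclic loess normalization (54 of 83). These scalings thus called 43 to 70 of all genes higher and 24 to 46 lower, to be set beside the list counts given below.

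Differences were also taken within each slide, as a description without a test. Past 0.5 on the log2 scale, 39 genes moved the same way on both slides, 29 higher and 10 lower, and 0 moved in opposite directions. Past 0.25 the counts were 104 higher, 32 lower and 8 opposite, and past 1 they were 5 higher, 3 lower and 0 opposite. The differences on the 2 slides correlated with r = 0.590 across 4938 genes without cgs1 and ura4 (Spearman's rho 0.409), as a description, since genes share the arrays. Of the 39 genes past 0.5 on both slides, 26 were called and 13 were not.

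**Figure D2:**
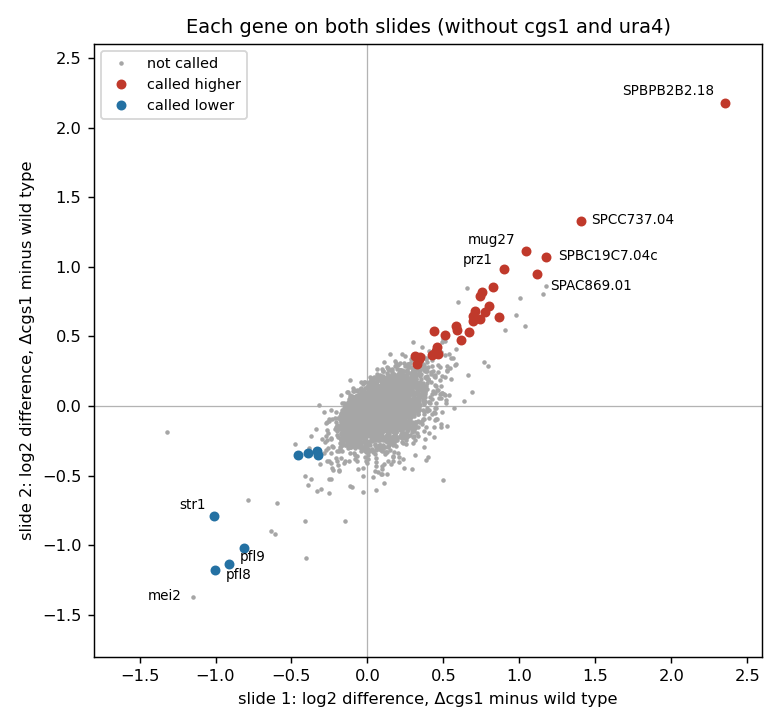
Log2 difference of Δcgs1 from wild type on slide 1 (x axis) and slide 2 (y axis), 1 point per gene, without cgs1 and ura4, with called genes in red (higher) and blue (lower). SPBPB2B2.18 lies farthest to the upper right, pfl8 and pfl9 lie to the lower left with mei2, which was not called, and no gene is past 0.5 in opposite directions.

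The largest rise after ura4 was that of SPBPB2B2.18, which has no symbol in the table of gene names used. It read 3573 and 4438 in wild type against 18303 and 20103 in Δcgs1, a log2 fold change of 2.27 (SE 0.21, adjusted p = 0.0208). Both Δcgs1 arrays lay far above both wild-type arrays. SPCC737.04 read 7636 and 10073 in wild type against 20188 and 25341 in Δcgs1 (1.37, SE 0.12, adjusted p = 0.0168). SPBC19C7.04c, whose neighbour in gene order is the adenylate cyclase gene cyr1, read 25010 and 27723 in wild type against 56393 and 58359 in Δcgs1 (1.12, SE 0.10, adjusted p = 0.0189). Signal for cyr1 itself was 23450 and 33203 in wild type against 22329 and 29940 in Δcgs1 (-0.11, adjusted p = 0.653), so the neighbours did not move together. SPAC869.01 was at background in wild type (1511 and 1646) and read 3276 and 3180 in Δcgs1, at least 1.29-fold higher (adjusted p = 0.0134). SPBC23G7.10c went the other way, from 3441 and 4517 in wild type to 1962 and 2229 in Δcgs1, which is at background, a fall of at least 1.58-fold (adjusted p = 0.0105). Genes without a symbol made up 17 of the 39, with 14 higher and 3 lower. The 10 further genes without a symbol that rose did so by log2 0.33 to 0.78, with SPCC584.16c (0.78), SPAC18B11.03c (0.76), SPBC15C4.06c (0.76), SPBPB10D8.02c (0.75) and SPCPB1C11.02 (0.73) at the top. The other unnamed genes that rose were SPAC1952.04c (0.51), SPAPB1A10.08 (0.49), SPAPB18E9.04c (0.44), SPBC28E12.02 (0.35) and SPCC4F11.03c (0.33). SPCC569.05c fell by 0.41 on the log2 scale (adjusted p = 0.0386).

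**Figure D3:**
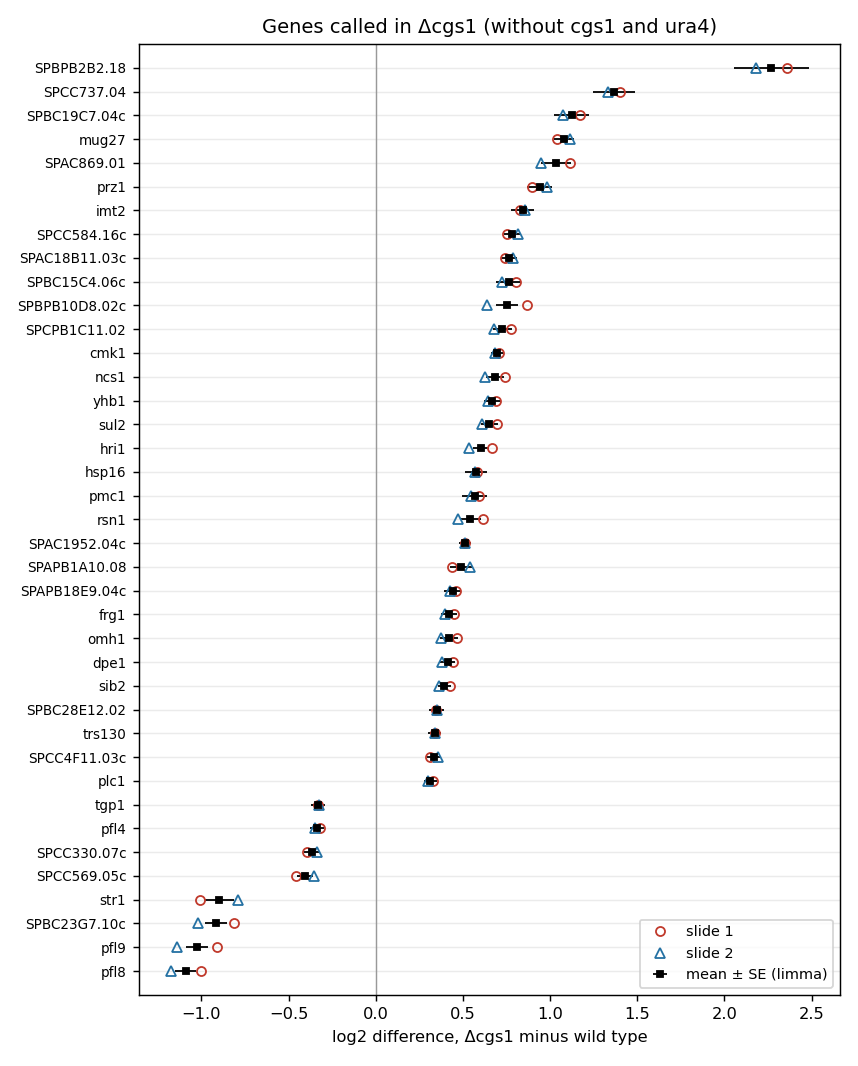
Log2 difference of Δcgs1 from wild type for the 39 called genes other than cgs1 and ura4, with slide 1 as circles, slide 2 as triangles, and the mean with its SE from limma as squares. Differences run from -1.09 (pfl8) to 2.27 (SPBPB2B2.18), and both slides lie on the same side of 0 for every gene shown. SPAC869.01 is at background in wild type and SPBC23G7.10c in Δcgs1, so their plotted values are not exact.

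Among genes of known function, the gene of a kinase of meiosis and the gene of a calcium-responsive transcription factor rose most. mug27 encodes a protein kinase needed to form the forespore membrane, the membrane that encloses the nuclei during sporulation. Its signal was 10174 and 10122 in wild type against 20953 and 21917 in Δcgs1 (log2 fold change 1.08, SE 0.06, adjusted p = 0.00576). The zinc finger transcription factor Prz1 is activated by the calcium-dependent phosphatase calcineurin. Signal for prz1 was 19196 and 22720 in wild type against 35757 and 44882 in Δcgs1 (0.94, SE 0.07, adjusted p = 0.0105). Signal for pmc1, which encodes a calcium pump of the vacuole, rose from 25220 and 29669 to 37954 and 43378 (0.57, SE 0.07, adjusted p = 0.0486). Another riser was cmk1, the gene of a calcium- and calmodulin-dependent protein kinase, which read 11535 and 13785 in wild type against 18867 and 22157 in Δcgs1 (0.70, SE 0.04, adjusted p = 0.00576). ncs1, which encodes a calcium-binding protein of the neuronal calcium sensor family, read 15061 and 18159 in wild type against 25148 and 28023 in Δcgs1 (0.68, SE 0.05, adjusted p = 0.0105). In these genes both arrays of Δcgs1 lay above both of wild type. For plc1, the gene of phosphoinositide-specific phospholipase C, the strains overlapped (13428 and 16882 in wild type, 16849 and 20792 in Δcgs1), and the rise was smaller (0.31, SE 0.04, adjusted p = 0.0443).

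Other genes that rose were imt2, omh1, trs130, rsn1, frg1 and dpe1. imt2, 1 of 3 genes for mannosyltransferases of inositol phosphorylceramide, read 11729 and 13108 in wild type against 20804 and 23754 in Δcgs1 (0.84, SE 0.06, adjusted p = 0.0105). Its relatives imt1 (0.24, adjusted p = 0.393) and imt3 (0.22, adjusted p = 0.102) were not called, and they were looked up after the value of imt2 was seen. omh1, which encodes an α-1,2-mannosyltransferase of glycoproteins, read 30046 and 35481 in wild type against 41498 and 45921 in Δcgs1 (0.42, SE 0.05, adjusted p = 0.0448). trs130, the gene of a subunit of the TRAPP complex that tethers vesicles, rose by log2 0.34 with overlapping signals (adjusted p = 0.0386). The log2 fold changes of the others were 0.54 (rsn1), 0.42 (frg1) and 0.41 (dpe1).

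Of 11 genes of cell surface adhesins 3 fell, where 0.182% of all genes did. Without slide as a block 2 were called, where 3 of all genes were called lower. After the other scalings 3 or 4 were called, where 24 to 46 of all genes were called lower. The flocculins among them let cells stick to each other in flocculation and to surfaces. The list also held mam3 and map4, which are on the mating list too (0.20 in each, not called). Signal for pfl8 was 40407 and 46180 in wild type against 20140 and 20448 in Δcgs1 (-1.09, SE 0.06, adjusted p = 0.00576). That for pfl9 was 13549 and 15886 in wild type against 7205 and 7222 in Δcgs1 (-1.02, SE 0.06, adjusted p = 0.00741). In both genes the Δcgs1 signals were close to 1 level on both slides and well below those of wild type. The third, pfl4, overlapped between strains (19251 and 25764, then 15397 and 20229) and fell by 0.34 on the log2 scale (adjusted p = 0.0465). The main flocculin gene gsf2 read 42624 and 53597 in wild type against 32051 and 37803 in Δcgs1 and was not called (-0.46, SE 0.08, adjusted p = 0.100). The median of the 11 was -0.02, against 0.02 for all genes, and pfl2 lay near the highest value of the arrays, where differences are compressed. Related pfl genes may share hybridisation, and how far the probes tell them apart was not tested. Of 11 regulators of flocculation, 0 were called (2 at an unadjusted p below 0.05), with the largest differences at ldb1 (0.23, adjusted p = 0.220) and cbf11 (0.13, adjusted p = 0.275).

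Genes of iron, sulfate and phosphate uptake were called singly, in both directions, where 0.648% of all genes rose and 0.182% fell. str1, the gene of a transporter of the iron carrier ferrichrome, fell from 46421 and 50866 in wild type to 23103 and 29459 in Δcgs1 (-0.90, SE 0.08, adjusted p = 0.0189). sib2, which encodes an enzyme of ferrichrome synthesis, rose from 26455 and 33358 to 35523 and 42924 (0.39, SE 0.04, adjusted p = 0.0275). Its neighbour sib1, the ferrichrome synthetase gene, was at 0.32 and not called (adjusted p = 0.0795). Transport and synthesis of the same compound thus had opposite signs, and of 15 iron acquisition genes 1 rose and 1 fell (median -0.06, 6 above 0). Of the 15, 7 had an unadjusted p below 0.05, where 675 of 4940 genes did. The strains did not overlap in 7, as in 12.6% of all genes. fip1 (-0.47), str3 (-0.49) and fio1 (-0.31) were lower without a call (adjusted p = 0.185, 0.275 and 0.265). After the other scalings 1 or 2 were called higher and 1 to 4 lower, where 43 to 70 of all genes were higher and 24 to 46 lower. Without slide as a block 0 were called. Signal for sul2, a sulfate transporter gene, was 9774 and 11813 in wild type against 15821 and 18014 in Δcgs1 (0.65, SE 0.05, adjusted p = 0.0105). It was the only call among 16 genes of sulfur assimilation (median 0.01). tgp1 encodes a transporter of glycerophosphodiesters that is induced when phosphate is scarce. It read 21245 and 25337 in wild type against 16882 and 20214 in Δcgs1 (-0.33, SE 0.04, adjusted p = 0.0465), the only call among 13 genes regulated by phosphate or thiamine.

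Among 25 core genes of the response to stress, 2 rose and 0 fell (median 0.03), where 0.648% of all genes rose and 0.182% fell. hsp16, the gene of a small heat shock protein, read 14744 and 19432 in wild type against 22056 and 28881 in Δcgs1 (0.58, SE 0.06, adjusted p = 0.0386). hri1 encodes a kinase that phosphorylates the translation factor eIF2α under stress, and read 7427 and 8520 in wild type against 11807 and 12347 in Δcgs1 (0.60, SE 0.05, adjusted p = 0.0105). Neither overlapped between strains, as in 12.6% of all genes. The other 23 genes were not called, and 0 or 1 was called lower after the other scalings. Among 18 heat shock chaperones hsp16 was the only call (median 0.00). yhb1, which encodes a flavohaemoglobin that detoxifies nitric oxide, read 22508 and 26055 in wild type against 36361 and 40756 in Δcgs1 (0.67, SE 0.05, adjusted p = 0.0105). Of 24 redox genes 0 were called (4 at an unadjusted p below 0.05, and 1 or 2 called lower after the other scalings), with gst3 (0.32, adjusted p = 0.201) and pmp20 (-0.26, adjusted p = 0.0808) at the extremes.

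None of the genes of the pathway itself was called apart from cgs1, which is not on the list. The list of PKA and glucose signalling held 21 genes, from the receptor gene git3 and the cyclase gene cyr1 to pka1 and its target transcription factor gene rst2. Their log2 differences ran from -0.13 (git7, adjusted p = 0.472) to 0.14 (git1, adjusted p = 0.362), with a median of 0.00 and 1 gene at an unadjusted p below 0.05. Genes of carbon metabolism were counted next, first those repressed by glucose. Over all genes 0.83% were called, and 675 of 4940 had an unadjusted p below 0.05. Of 20 genes of glucose-repressed carbon metabolism 0 were called (median 0.06), with 9 at an unadjusted p below 0.05. After the other scalings 1 was called higher and 2 or 3 lower, where 43 to 70 of all genes were higher and 24 to 46 lower. The largest difference there was at ght5, which encodes the high-affinity hexose transporter, with 31754 and 36776 in wild type against 18374 and 23044 in Δcgs1 (-0.73, SE 0.10, adjusted p = 0.0570). Its signals did not overlap between strains, and it missed the threshold narrowly. ght3 was at background on all 4 arrays. The gluconeogenic gene fbp1, a textbook target of the pathway picked after its values were seen, read 6964 and 9053 in wild type against 8304 and 9409 in Δcgs1 (0.15, SE 0.10, adjusted p = 0.591). Of 17 genes of glycolysis and fermentation 0 were called, 1 had an unadjusted p below 0.05, and 13 of these lay near the highest value.

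Genes of sexual development followed. Of 28 genes of mating and pheromone response 0 were called (median 0.04), with 6 at an unadjusted p below 0.05. After the other scalings 1 to 4 were called lower and 0 higher, where 24 to 46 of all genes were lower and 43 to 70 higher. mei2, which encodes an RNA-binding protein that starts meiosis, had the largest difference of the list, with 8875 and 9788 in wild type against 3998 and 3792 in Δcgs1. Both Δcgs1 arrays lay far below wild type, yet the fit gave a log2 difference of -1.26 with an SE of 0.16 and an adjusted p of 0.0566. It was the only gene past 1 on both slides that was not called. Signal for ste11, the gene of the transcription factor of sexual development, also picked after its values were seen, was 19746 and 23706 in wild type against 23878 and 26922 in Δcgs1 (0.23, SE 0.10, adjusted p = 0.387). Of 33 genes of meiosis and spore formation 1 rose, mug27, and 0 fell (median 0.08, 25 above 0), while 1 was called lower after each of the other scalings. Over all genes 0.648% rose.

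Lists of growth and housekeeping genes gave 0 calls. They were the cytosolic ribosomal proteins (136 genes, median -0.01, 93 of them near the highest value), ribosome biogenesis (46 genes, median 0.02), amino acid biosynthesis (27 genes, 0.00), the cell cycle (27 genes, 0.00), the tricarboxylic acid cycle (16 genes, 0.01), coenzyme Q synthesis (12 genes, 0.02), histones (10 genes, 0.00) and the cell wall (20 genes, 0.02). At an unadjusted p below 0.05 these lists held 0 to 3 genes each. Other scalings called at most 1 gene in the cell wall and cell cycle lists and 0 in the others. Genes for respiration and ATP synthase had the lowest median of the larger lists, -0.07 over 31 genes with 9 above 0, led by qcr8 (-0.27, adjusted p = 0.352) and cor1 (-0.27, adjusted p = 0.430). Autophagy genes had the highest, 0.11 over 22 genes with 21 above 0, led by atg3 (0.25, adjusted p = 0.382) and atg2 (0.21, adjusted p = 0.275). Both medians kept their sign under the 3 other scalings, at 0.05 to 0.07 for autophagy and -0.11 to -0.10 for respiration, and 0 of these genes were called, with 5 autophagy and 4 respiration genes at an unadjusted p below 0.05. Of 21 genes for nitrogen starvation and the uptake of amino acids 0 were called (3 at an unadjusted p below 0.05, and 1 called lower after each of the other scalings), and gdh2, the glutamate dehydrogenase gene, had the largest difference (32091 and 41211, then 21221 and 25476, log2 -0.65, SE 0.10, adjusted p = 0.0863). Of 13 genes of pyrimidine synthesis and salvage other than ura4 itself 0 were called (4 at an unadjusted p below 0.05), with urg2 at 0.22 (adjusted p = 0.128) and urg3 at 0.22 (adjusted p = 0.185).

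**Figure D4:**
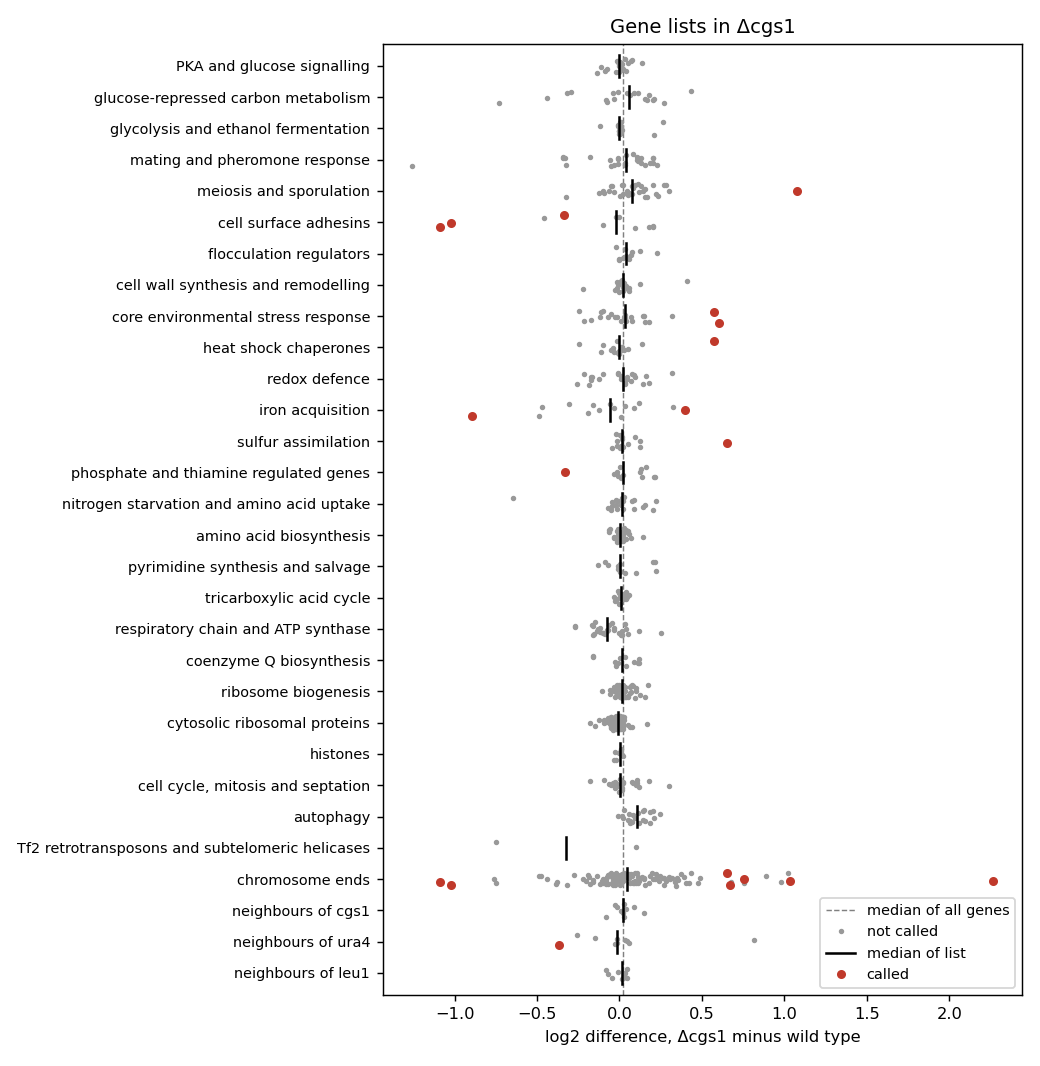
Log2 difference of Δcgs1 from wild type for each member of the 30 gene lists, with grey points for genes not called, red points for called genes, a black bar at the median of each list and a dashed line at the median of all genes (0.02). List medians lie between -0.07 and 0.11 except for Tf2 retrotransposons and subtelomeric helicases, a list of 2 genes with a median of -0.32, and the calls are single genes except among adhesins, stress genes, iron genes and chromosome ends.

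By position, 7 of the 120 genes in the list of chromosome ends were called (5.83%, where 0.83% of all genes were), with 5 higher and 2 lower. The count was 2 and 2 without slide as a block, and 9 to 17 higher and 2 to 9 lower after the other scalings. Over all genes the counts were 4 and 3 without the block, and 43 to 70 higher and 24 to 46 lower after those scalings. This list takes the 30 outermost measured genes at each end of chromosomes I and II. Those that rose were SPBPB2B2.18, SPAC869.01, SPBPB10D8.02c, yhb1 and sul2, and those that fell were pfl8 and pfl9. The median of the list was 0.05, and 26 of its genes were at background in both strains. Families near the chromosome ends hold close copies, so signal may be shared between them, and this was not tested. Of the 13 genes past 0.5 on both slides without a call, 6 were also on this list, which holds 120 of the 4940 genes. Among the 6 were SPAC212.02 (1.02, adjusted p = 0.0785) and SPAC977.03 (0.98, adjusted p = 0.0978). Called genes lay next to each other in 4 pairs. ncs1 and SPAC18B11.03c both rose, as did yhb1 and SPAC869.01, whose other neighbour pfl9 fell. SPCC4F11.03c and imt2 rose together, and SPCC4F11.05 on the far side of imt2 was at 0.72 without a call (2355 and 2719, then 4404 and 3964, adjusted p = 0.170).

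Around the disrupted locus, 0 of 10 neighbours of cgs1 were called (1 at an unadjusted p below 0.05), with the largest difference at fhl1 (0.15, adjusted p = 0.290) and then ppr4 (0.09, adjusted p = 0.583). Around the ura4 locus, deleted in both strains, 1 of 10 fell, where 0.182% of all genes did. After the other scalings 2 were called lower and 0 or 1 higher, where 24 to 46 of all genes were lower and 43 to 70 higher. The gene that fell as deposited was SPCC330.07c, at 42256 and 48458 in wild type against 32163 and 38444 in Δcgs1 (-0.36, SE 0.04, adjusted p = 0.0467). pmp20, between it and ura4, was at -0.26 without a call (adjusted p = 0.0808). SPCC330.03c had the largest difference there, 9544 and 11356 in wild type against 18796 and 17872 in Δcgs1 (0.82, SE 0.19, adjusted p = 0.185). Around leu1, 0 of 10 neighbours were called and 0 had an unadjusted p below 0.05, with tam41 at -0.08 and top2 at -0.07.

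The called genes were then followed in the other disruptants. Comparisons with wild type share the same wild-type arrays, which also chose the genes, so values and counts are a description, given side by side. Of the 39 other than cgs1 and ura4, 20 were called in the same direction in the arrays labelled Δpka1, 10 in the opposite direction and 9 not at all. In Δppt1 these counts were 13, 9 and 17. Over all 4940 genes, 1908 were called in the former and 636 in the latter. Unless given as signals or folds, values are log2 differences from wild type, for the arrays labelled Δpka1 first and then for Δppt1. mug27 was at -0.26 in the arrays labelled Δpka1 and 0.58 in Δppt1. SPBPB2B2.18 was at background in both, with 1779 and 1539 in the former and 1984 and 1327 in the latter, so it was at least 1.59-fold lower there than in wild type (adjusted p = 0.00874 and 0.0248). prz1 was at 0.30 and 0.14, and cmk1 at 0.26 and 0.16. pfl9 was lower in all 3, at -1.30 and -1.75 in the other strains, while pfl8 was at -1.25 in the arrays labelled Δpka1 and 0.07 in Δppt1. str1 was at 0.35 and 0.39, and SPBC23G7.10c at 1.07 and 1.79, both opposite in sign to Δcgs1. Signals for str1 in these 2 strains lay near the highest value, where differences are compressed. sul2 was higher in all 3, at 1.19 and 2.25, and hsp16 was at 1.11 and 0.27. In the arrays labelled Δpka1, mei2 was at 2.65, fbp1 at 2.97, ste11 at 1.30 and ght5 at 0.88. In Δppt1 they were at -0.95, -0.39, -0.69 and -0.19, and in Δcgs1 at -1.26, 0.15, 0.23 and -0.73, without a call. mei2 was not called between Δcgs1 and Δppt1 (-0.31, adjusted p = 0.236 by limma). In the arrays labelled Δpka1, fbp1 (59398 and 64880) and ght5 (63726 and 62116) lay near the highest value, where differences are compressed.

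Set directly against the arrays labelled Δpka1, which carry ura4 too, 32 of the 39 genes differed in Δcgs1, where 41.3% of all genes did. Against Δppt1, which lacks ura4 as wild type does, 35 differed, where 20.5% of all genes did. These contrasts reuse the Δcgs1 arrays that chose the genes, so their counts are a description. Both differences were called, with the sign of the difference from wild type, for 26 of the 39, a count not made over all genes. Some of the 26 follow, in the order arrays labelled Δpka1 and then Δppt1. SPCC737.04 differed by log2 1.10 and 1.82, SPCC584.16c by 1.39 and 1.05, and SPAC18B11.03c by 1.07 and 0.81. prz1 differed by log2 0.64 and 0.80 (adjusted p = 0.00213 and 0.00295), and mug27 by 1.34 and 0.50 (adjusted p = 0.000132 and 0.0068). cmk1 differed by 0.43 and 0.54 (adjusted p = 0.000906 and 0.00174), and ncs1 by 0.51 and 0.69 (adjusted p = 0.00173 and 0.00232). The transporter gene str1 was lower by the same contrasts, at -1.25 and -1.28 (adjusted p = 0.000476 and 0.00156). SPBPB2B2.18 was at background in both other strains and was at least 7.68-fold higher in Δcgs1 than in either (adjusted p = 0.000373 and 0.00132). pfl8 differed from Δppt1 (adjusted p = 0.00081) and not from the arrays labelled Δpka1 (adjusted p = 0.0812). yhb1 differed from the latter (adjusted p = 0.00322) and not from Δppt1 (adjusted p = 0.892). SPCC330.07c, from the list of genes around ura4, differed from both (adjusted p = 0.0047 and 0.00403).

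**Figure D5:**
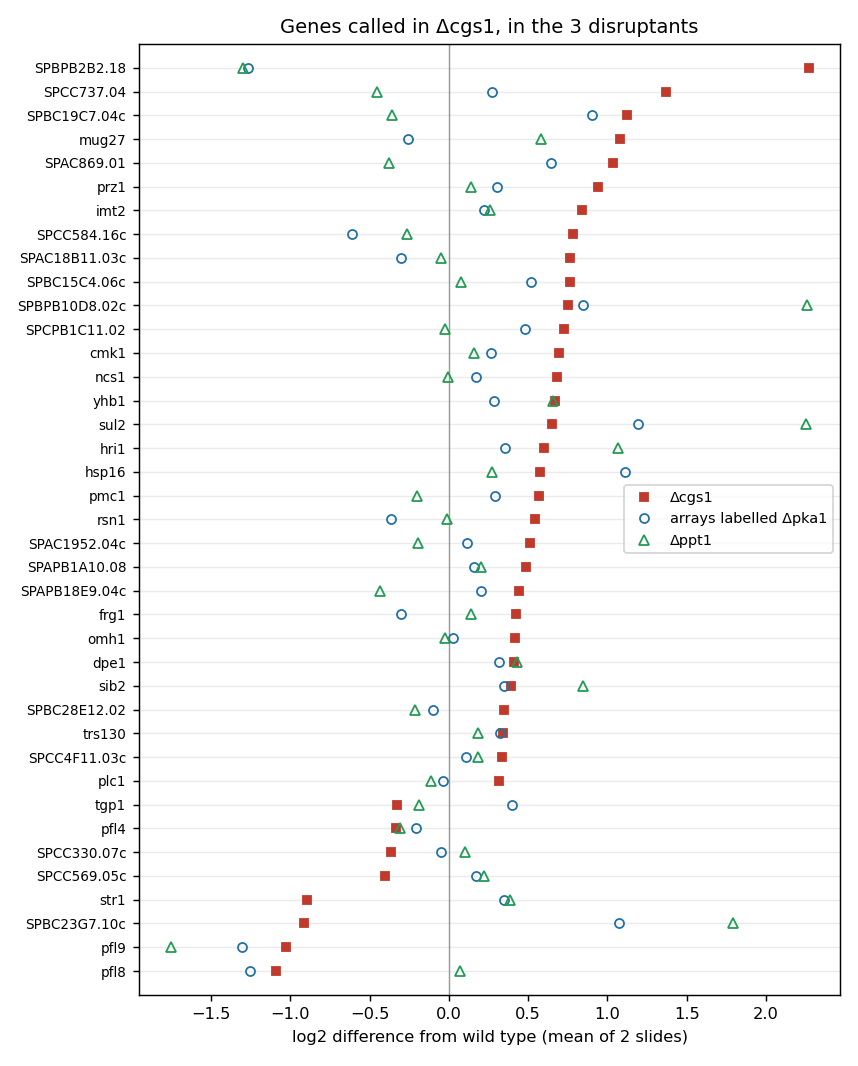
Log2 difference from wild type of the 39 genes called in Δcgs1 (other than cgs1 and ura4), with squares for Δcgs1, circles for the arrays labelled Δpka1 and triangles for Δppt1, each the mean of 2 slides against the same wild-type arrays. SPBPB2B2.18 is at 2.27 in Δcgs1, and its other points rest on signals at background and are not exact. The same holds for all 3 points of SPAC869.01, at background in wild type, and for the Δcgs1 point of SPBC23G7.10c. pfl9 is below 0 and sul2 above 0 in all 3 disruptants.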

How the data were processed

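Double-stranded cDNA was made from total RNA, labelled with Cy3 and hybridised to 1-colour NimbleGen arrays, per the labels' protocols. Each deposited file gives, per the file headers, an intensity for each gene, on a linear scale, that summarises its probes. The method of summary and normalization is not stated by the labels. A deposited score column, per the file headers an error of the summary, was not used. The deposited series table held the same values (largest difference 0). Of 4940 genes, 4922 had 14 probes. Symbols and gene order came from a RefSeq table (ASM294v3) that matched 4916 genes, 4148 with a symbol, and no positions are given because the files name no build. On slide 2, titles and file names give the disruptants different array positions, and the labelled strain was used.

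Values were taken to log2. limma 3.58.1 in R 4.3.3 fitted 1 mean per strain and slide as a block to all 8 arrays (3 residual degrees of freedom), with two-sided moderated tests and Benjamini-Hochberg adjustment over all genes. By the titles, same-numbered arrays lie on 1 slide, and deviations of same-slide arrays from their strain means correlated in all 6 pairs of strains (r from 0.351 to 0.690). With 2 arrays per strain, their number limits the precision. A gene at or below the background limit on both arrays of a strain has only a bound. The limit is the highest of 8 signals of deleted genes (cgs1 in Δcgs1, ppt1 in Δppt1, ura4 in wild type and Δppt1). The 370 genes (7.49%) with a mean within 10% of the highest value were marked as near the highest value. The named genes were the disrupted and marker genes, every called gene, and of each list its called members or otherwise its 2 largest differences. The 30 gene lists were written from general knowledge, and members, lists and tests were chosen with earlier results of these data known. The fits were also run on simulated data with the slide effect and independent noise built in. That checks the code and cannot show how far the calls on the real arrays hold. Alternatives were no block, other sets of arrays, other scalings, filters on dim or bright genes, other variance models, the deposited table, and each array left out.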

Additional observations from a re-analysis of the deposited data

How the results depend on the processing

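The 41 calls became 7 with no replicate block, 1 (ura4) in a fit to the 4 arrays of these strains with the replicate block, 15 without the arrays labelled Δpka1, 67 with array medians matched, 116 after quantile normalization, 83 after cyclic loess and 71 with a variance trend. Of the 41, 40 or more remained under each of the 3 scalings and 38 with the variance trend. Leaving out 1 array gave 1 to 27 calls, and in such a fit a lone array is assumed to vary like the other strains. The count of genes past 0.5 on both slides was 39, and 38 with medians matched. With no replicate block the direct contrasts fell from 2041 to 511 calls against the arrays labelled Δpka1 and from 1015 to 88 against Δppt1. Leaving out 1 array gave 883 to 2248 and 117 to 1047 calls. cgs1 kept its log2 fold change of -4.11 in the fit to 4 arrays, with adjusted p = 0.0899. ura4 was at 4.90 (adjusted p = 0.0848) and 4.76 (adjusted p = 0.0955) without the Δcgs1 array of slide 1 and slide 2, and leaving out each of the 8 arrays gave 4.70 to 4.96. Signs turned only in genes that were not called. leu1 went to -0.032 with medians matched and -0.0040 after cyclic loess, and leaving out 1 array gave -0.044 to 0.046. The same ranges were -0.035 to 0.025 for pka1, -0.078 to 0.0081 for pht1, -0.065 to 0.011 for hhf3 and -0.26 to 0.088 for tam41. The cause of these moves was not tested. Of 1575 values of the 83 single genes under the alternatives, 1186 kept direction and side of the threshold, 349 lost the call, 31 gained it and 9 turned. Only the 39 called genes among the 83 could lose a call, so all 349 losses were theirs. In the 11 alternatives that left out no array, each of them was called in 5 (trs130) to 10 (such as pfl8). Dim signals, and those near the highest value, limit what can be seen for genes at either end.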

Other observations

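Several of the named genes that rose have a known part in calcium signalling, and a list of 18 such genes was written after this was seen, so it is a description with no test. Of the 18, 5 rose in Δcgs1 (prz1, cmk1, ncs1, pmc1 and plc1), 0 fell and 13 were not called, where 0.83% of all genes were called. The 13 lay between -0.09 and 0.11 on the log2 scale, and the median of the 18 was 0.07. Among them were the genes of the calcineurin subunits, ppb1 (0.06, adjusted p = 0.763) and cnb1 (0.02, adjusted p = 0.960), and of calmodulin, cam1 (-0.06, adjusted p = 0.688). The 5 genes that rose were at -0.04 (plc1) to 0.30 (prz1) in the arrays labelled Δpka1 and at -0.20 (pmc1) to 0.16 (cmk1) in Δppt1, all against the same wild-type arrays. In the former, prz1 (adjusted p = 0.0221), cmk1 (adjusted p = 0.00445) and pmc1 (0.29, adjusted p = 0.0277) were called higher by limma, as were 724 of 4940 genes. There ncs1 and plc1 were not called. In Δppt1 only cmk1 was called higher (adjusted p = 0.0485), where 273 of all genes were.

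The 13 genes past 0.5 on both slides without a call, 8 higher and 5 lower, had adjusted p from 0.0566 to 0.185. Of these, ftm3 and ftm7 were at background in both strains. SPCC330.03c, higher here by 0.82, was at -2.10 in the arrays labelled Δpka1, on signals of 2903 and 2027. SPAC750.03c, higher here by 0.89, was at background there (1665 and 1300), at least 1.55-fold below wild type. SPBPB2B2.06c was at -0.76 in Δcgs1 and at background in the arrays labelled Δpka1 (1581 and 1066), at least 2.24-fold below wild type.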
